A study of Mus musculus with 48 samples.

Results

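Interferon-stimulated genes and genes of antigen presentation were followed in NIH3T3 cells, an immortalised mouse fibroblast line, after forskolin, an activator of adenylyl cyclase that brings the clocks of cultured cells into step. The genes were 36 members of a fixed list, found by their gene symbol on the array, and each was shown by its brightest probe set. A probe set with 1 gene symbol was present for 34 of them, out of 18193 genes with such a probe set on the array. Isg15 was named only on a probe set that also names another gene, and Ifi44 on none, so neither was analysed here. All samples formed 1 group. The cells had been grown to confluence and synchronised with forskolin, and RNA was taken each hour from hour 20 to hour 67 and hybridised to 1 array per hour, 48 arrays in all. The course has neither replicate arrays at an hour, nor untreated cells, nor cells before the drug, so a change is a change along this 1 course and cannot be told apart from time in culture. Values are log2 intensities, and the arrays were processed together before deposit.

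Type I interferons bind a receptor that activates the kinases JAK1 and TYK2, which phosphorylate transcription factors, STAT2 among them. With IRF9 these form a complex that binds the interferon-stimulated response element, or ISRE, in front of many antiviral genes, while interferon-γ works mainly through a second element, called GAS. The genes switched on encode sensors of viral RNA, proteins that block viral RNA or budding, the ubiquitin-like modifier ISG15 and its protease, and the class I molecules that show peptides to T cells.

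Promoters are shown first, because they carry the element that names the group. Promoter windows from RefSeq on GRCm38.p6, from 250 bases before to 50 bases after each start site, were found for 27 of the 36 genes. An ISRE was searched as GAAANNGAAA on both strands, so that its reverse complement also counts, and copies may overlap. It was present in the windows of 13 of the 27 genes (48.1%), against 3.99% of 27025 genes in the table. A GAS motif, searched as TTCNNNGAA, was present for 5 of the 27 (18.5%) and for 9.55% of all genes. The 4 called genes of largest change that held an ISRE were Ifit3, Bst2, Ifit1 and Gbp3, and their 250 bases before the start site follow, 5′ to 3′ on the strand of the gene, with the ISRE letters in capitals.
Ifit3: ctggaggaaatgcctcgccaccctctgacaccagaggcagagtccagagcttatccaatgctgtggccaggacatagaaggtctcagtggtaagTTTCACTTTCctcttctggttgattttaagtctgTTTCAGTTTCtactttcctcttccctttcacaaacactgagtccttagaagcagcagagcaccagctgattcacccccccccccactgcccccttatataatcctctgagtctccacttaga
Bst2: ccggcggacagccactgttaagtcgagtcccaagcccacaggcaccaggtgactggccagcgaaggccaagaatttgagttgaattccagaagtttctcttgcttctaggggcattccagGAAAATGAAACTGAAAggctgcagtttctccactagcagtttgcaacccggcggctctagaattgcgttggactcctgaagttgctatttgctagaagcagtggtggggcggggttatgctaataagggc
Ifit1: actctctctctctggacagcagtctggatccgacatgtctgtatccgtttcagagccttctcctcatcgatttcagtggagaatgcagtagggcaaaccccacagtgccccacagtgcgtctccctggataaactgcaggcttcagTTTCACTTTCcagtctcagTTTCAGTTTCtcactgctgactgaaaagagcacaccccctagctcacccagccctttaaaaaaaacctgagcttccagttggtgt
Gbp3: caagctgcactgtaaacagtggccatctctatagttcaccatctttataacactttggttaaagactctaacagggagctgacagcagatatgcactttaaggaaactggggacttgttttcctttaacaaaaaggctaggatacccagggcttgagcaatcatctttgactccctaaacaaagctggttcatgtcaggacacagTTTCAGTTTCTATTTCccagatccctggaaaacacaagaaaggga

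The Ifit3 window lies at chr19:34583279-34583528 and the Ifit1 window at chr19:34640639-34640888, both on the plus strand. Each holds 2 separate copies, TTTCACTTTC and then TTTCAGTTTC, which begin 156 and 122 bases before the Ifit3 start site and 104 and 85 bases before that of Ifit1. The Bst2 window, chr8:71537473-71537722 on the minus strand, holds 2 overlapping copies in a run of 16 bases that begins 130 bases before the start. The Gbp3 window, chr3:142559794-142560043 on the plus strand, holds 2 overlapping copies in a run of 16 bases that begins 45 bases before the start. Ifit2, which also rose, had windows in the table without these letters, and Usp18 had none there. Among the genes that rose and had a window, 5 of 10 held an ISRE, and among those not called 7 of 14 did, so the letters were as frequent in both.

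A change over the course was read as the linear term of a fit that also held a 24 h cosine. It is given as the fitted log2 difference between hour 67 and hour 20 ± SE, and was called at an adjusted p under 0.05 over 45037 probe sets. Of the 34 genes 14 rose, 2 fell and 18 were not called. In RNA from a whole culture, a change in the share of cells that use a gene and a change in its RNA per cell cannot be told apart. Over all probe sets 14.2% rose and 16.2% fell, so rises were more frequent in the list and falls less so. This is a description, since the lists were chosen with earlier results of these data known. The median change was 0.10 over the 34 genes and −0.0067 over all probe sets. Many probe sets lie at the floor of these arrays, where little change can be read. Of the 24 genes whose mean exceeded the median probe set (6.67) 13 rose and 2 fell, and among all probe sets above that median 26.4% rose and 26.4% fell.

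**Figure D1:**
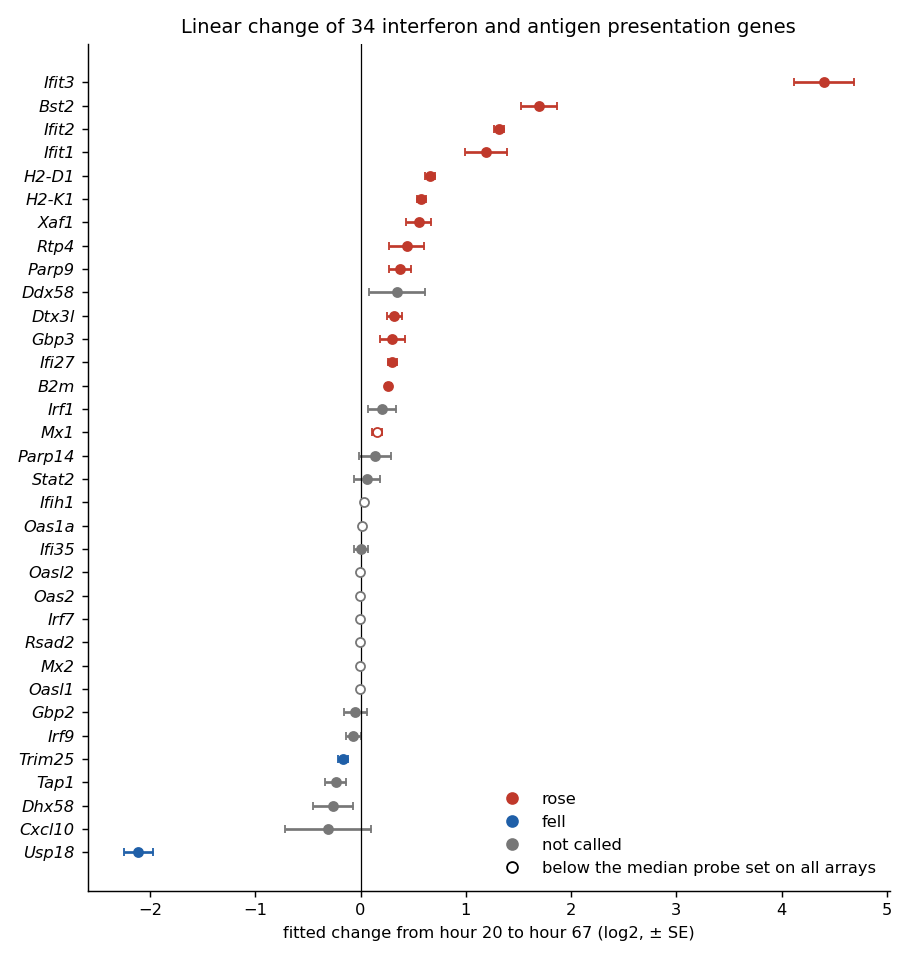
Fitted log2 change from hour 20 to hour 67 with its SE for the 34 genes with a probe set of their own, from the largest rise (Ifit3) at the top to the largest fall (Usp18) at the bottom. Red marks genes that rose, blue genes that fell and grey genes not called, and open circles mark the 9 genes that stayed below the median of all probe sets on all 48 arrays.

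Array quality bears on several of these genes. At hours 52 to 55 the BioB spike-in was brighter by 0.90 than elsewhere. The β-actin 3′ minus 5′ difference, which is larger in shorter RNA or cDNA, had a median of 1.13. It exceeded 1.4 on 10 arrays (highest 2.42), those of hours 20, 22, 24, 36, 38, 40, 43, 45, 46 and 67. These arrays were not spread evenly over the course, so RNA quality and time are partly mixed. On those 10 arrays the mean of Parp14 was higher by 0.44, that of Dhx58 by 0.37, that of Usp18 by 0.30 and that of Stat2 by 0.27, while Bst2 differed by −0.33, Xaf1 by −0.32, Ifit3 by −0.29, H2-D1 by −0.23 and H2-K1 by −0.22. When the β-actin difference entered the fit, all 16 calls below were kept, and without the 10 arrays all but that of Gbp3. The markers of fibroblasts were all 12 above the median probe set, and 7 of them rose and 3 fell, among these Thy1 (−0.88 ± 0.04). Of 12 macrophage markers 7, among them the defining Ptprc, Adgre1 and Itgam, lay below it on all 48 arrays. Cd14 (mean 12.59) and Cd68 (mean 10.42) lay above it, and Cd14 changed by −0.78 ± 0.10. Lyz2, with a mean of 6.52, rose by 0.88 ± 0.15 (adjusted p = 5.79e-06), and Csf1r, with a highest array of 8.81, changed by −0.94 ± 0.35 (adjusted p = 0.0376). The part of such cells in the rises was not tested.

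The Ifit genes encode proteins with tetratricopeptide repeats that bind viral RNA and hold back its translation, and Ifit1, Ifit2 and Ifit3 stand in 1 cluster on chromosome 19. Close relatives such as Ifit3b lie in the same cluster, and their transcripts could add to a probe set's signal. Ifit3 ran from 6.51 at hour 22 to 11.08 at hour 55, with a median of 9.56. Its first 6 arrays lay between 6.51 and 8.22 and its last 6 between 10.21 and 11.06, with no overlap. The means of these 2 blocks differed by 3.50, or 11.3-fold. The fitted line gave 4.40 ± 0.28 (limma, adjusted p = 1.1e-17), more than the difference between the blocks, since the course was not straight. The block means rose by 0.57, 1.30, 2.01, 2.81 and 3.51 over the first block and then stayed at 3.48 and 3.50, so the rise was complete by hours 50 to 55.

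Ifit2 rose with little scatter. It ran from 13.11 at hour 21 to 14.54 at hour 66 with a median of 13.98. The first 6 arrays lay at 13.11 to 13.61 and the last 6 at 14.32 to 14.54, a 2.18-fold difference of their means, and only 1 of the 24 arrays of hours 20 to 43 exceeded the lowest array of hours 44 to 67. The fitted change was 1.32 ± 0.05 (adjusted p = 1.81e-25). Ifit1 was noisier, from 6.93 at hour 26 to 9.19 at hour 67 with a median of 8.01. Its first 6 arrays (7.34 to 8.17) and last 6 (7.77 to 9.19) overlapped. Its fitted change was 1.19 ± 0.20 (adjusted p = 3.77e-06), and its block means reached their highest, 0.82 above the first block, in hours 44 to 49.

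The other antiviral effectors of this kind gave no such course. Oas1a, Oas2, Oasl1 and Oasl2, of the family of 2′-5′ oligoadenylate synthetases, and Rsad2, which encodes viperin, lay below the median probe set on all 48 arrays, and so did Irf7, Ifih1, Mx1 and Mx2. The means of these 9 lay between 5.34 and 6.05 and their SDs between 0.0036 and 0.096, so a change in their RNA could not be read at these levels. Mx1, a GTPase that traps viral nucleocapsids, is the only one of the 9 that was called, with a change of 0.16 ± 0.04 (adjusted p = 0.00573) and a highest array of 6.44.

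Bst2, or tetherin, anchors budding virus to the cell surface. It ran from 9.45 at hour 22 to 11.39 at hour 52, with a median of 10.68. Its first 6 arrays lay at 9.45 to 10.50 and its last 6 at 10.32 to 11.25, so they overlapped, and the means differed 2.26-fold. The fitted change was 1.70 ± 0.17 (adjusted p = 2.05e-11). The guanylate-binding proteins, GTPases that attack vacuoles of pathogens, moved little. Gbp3 changed by 0.30 ± 0.12 (adjusted p = 0.0479), a call that was lost under 7 of 11 other settings and when any of 27 arrays was left out singly, and Gbp2 by −0.05 ± 0.11, which was not called.

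**Figure D2:**
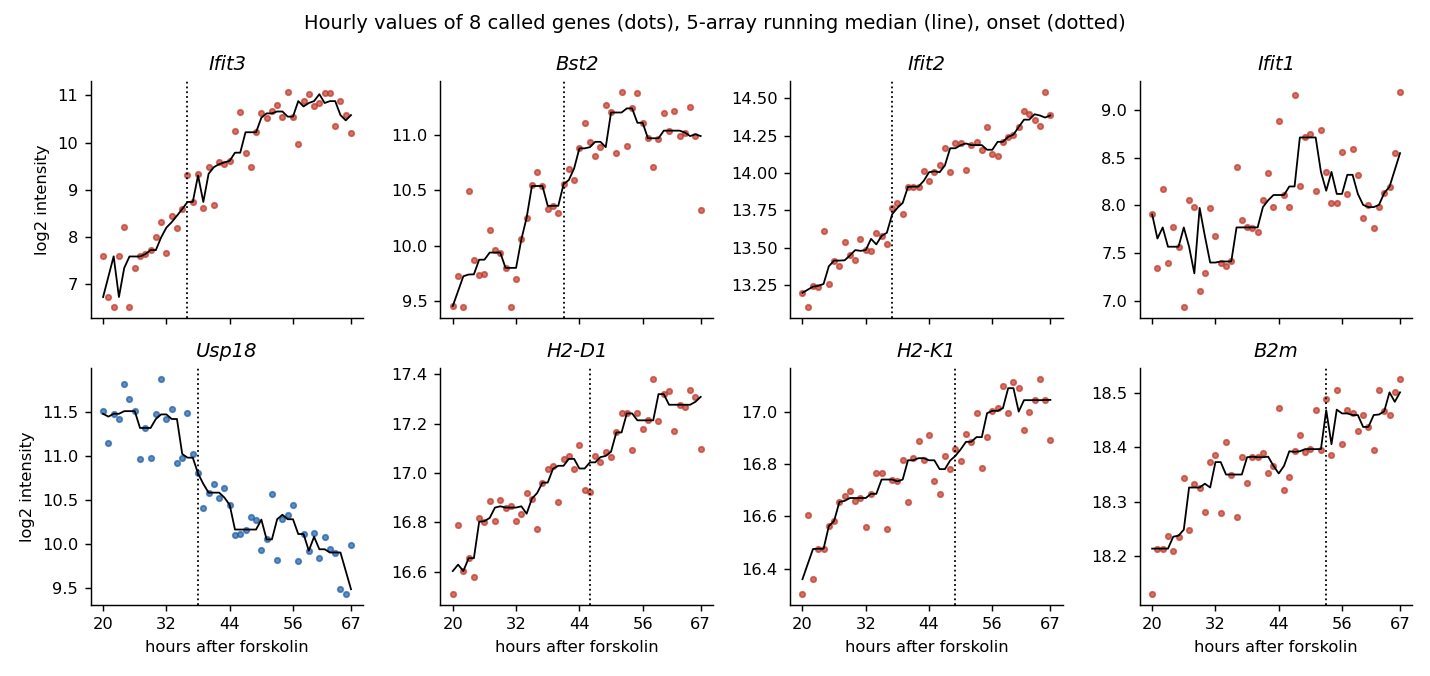
Log2 intensity of 8 called genes on each of the 48 hourly arrays (dots; red rose, blue fell) against hours after forskolin, with the 5-array running median (line) and the onset hour where the rule gave one (dotted line). Each panel has its own vertical axis. Ifit3 levels off near the last 18 arrays, Usp18 runs down from hour 38, and the 3 class I genes climb slowly, with H2-D1 and H2-K1 level in the last 12 arrays.

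Usp18, the protease that removes ISG15 from proteins and also blocks signalling at the type I receptor, was the gene of the list that fell most. Its values ran from 11.87 at hour 31 down to 9.43 at hour 66, with a median of 10.48. The first 6 arrays lay at 11.15 to 11.82 and the last 6 at 9.43 to 10.08, with no overlap and a 3.24-fold difference of their means. The fitted change was −2.11 ± 0.14 (adjusted p = 1.72e-17). Block means were 0.15 and 0.28 lower than the first block in hours 26 to 31 and 32 to 37, then 0.90, 1.27, 1.34, 1.46 and 1.70 lower. Usp18 and Ifit3, both well-known interferon targets, thus moved in opposite directions over the same hours. Trim25, the ubiquitin ligase that acts on RIG-I, changed by −0.16 ± 0.05 (adjusted p = 0.00737), a call lost without hours 62 to 67 (−0.073, adjusted p = 0.241) and with means of 6 h blocks (adjusted p = 0.229). Its other probe sets gave 0.01 ± 0.08, which was not called, and −0.34 ± 0.09, which was called with a mean below the median probe set.

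Genes of class I presentation rose by less but with small errors. B2m, the invariant light chain of class I molecules, ran from 18.13 at hour 20 to 18.53 at hour 67 with a median of 18.39. Its first 6 arrays (18.13 to 18.24) and last 6 (18.40 to 18.53) did not overlap, and the fitted change was 0.27 ± 0.02 (adjusted p = 1.75e-12). H2-D1, a class I heavy chain, ran from 16.51 at hour 20 to 17.38 at hour 58 with a median of 17.04, and its first and last 6 arrays (16.51 to 16.82 and 17.10 to 17.34) stood apart. Its change was 0.66 ± 0.04 (adjusted p = 5.36e-17), and the change of H2-K1, the other heavy chain, was 0.58 ± 0.04 (adjusted p = 5.77e-15). H2-K1 ran from 16.30 at hour 20 to 17.13 at hour 65, with a median of 16.80 and no overlap between its first 6 arrays (16.30 to 16.60) and last 6 (16.89 to 17.13).

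Other bright probe sets of these 3 genes moved the same way. The remaining H2-D1 and H2-K1 probe sets lay below the median probe set on all arrays, and none of them was called. The second B2m probe set gave 0.38 ± 0.03, the 3 further H2-D1 probe sets with means above 12 gave 0.39 to 1.10, and the 2 further bright H2-K1 probe sets gave 0.78 and 0.87, all called. Most of the heavy chain probe sets are of a design that can hybridise to related class I transcripts, so H2-D1 and H2-K1 cannot be fully told apart from each other or from other class I genes. Tap1, which carries peptides into the endoplasmic reticulum to be loaded, did not share the rise. It ran from 10.92 at hour 64 to 11.82 at hour 27, with a median of 11.41, and changed by −0.24 ± 0.10, just short of the threshold (adjusted p = 0.0601).

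Smaller rises were found in the remaining groups. Parp9 and Dtx3l, which form an ADP-ribosylation and ubiquitin ligase pair, changed by 0.38 ± 0.11 and 0.32 ± 0.07 (adjusted p = 0.00413 and 0.000246). The call of Parp9 was lost without hours 20 to 25 (0.18, adjusted p = 0.203) and with means of 6 h blocks (adjusted p = 0.105). The second Dtx3l probe set gave 0.92 ± 0.21 (adjusted p = 0.000604), but it was 0.93 lower on the 10 arrays of high β-actin difference. Parp14 was not called (0.14 ± 0.15), although with the β-actin covariate it was (0.35, adjusted p = 0.00541). Xaf1, an interferon-induced partner of the apoptosis inhibitor XIAP, rose by 0.55 ± 0.12 (adjusted p = 0.000204) and by 0.66 ± 0.15 on its other probe set. Rtp4, a chaperone of membrane receptors, changed by 0.44 ± 0.17 (adjusted p = 0.042), and by 0.28 (adjusted p = 0.264) with a term for hours 52 to 55. The call was also lost with means of 6 h blocks (adjusted p = 0.143) and without hours 20 to 25 (adjusted p = 0.166). Leaving out any of 16 arrays singly ended it too. The other Rtp4 probe set, with a mean of 5.94, gave 0.0054 ± 0.046 and was not called.

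Ifi27 rose by 0.30 ± 0.04 (adjusted p = 3.91e-07), with its last 6 arrays (16.53 to 16.61) above its first 6 (16.20 to 16.50). It was also the only gene of the 34 with a 24 h cosine, with an amplitude of 0.12 ± 0.02 and a peak between hours 43 and 44 (adjusted p = 0.000138). Of all probe sets 0.293% had such a wave. Fisher's G-test, the second rhythm test of the study, likewise named only Ifi27 at 24 h (q = 0.00207), against 1.04% of all probe sets. Its other probe set rose (0.56 ± 0.08) but had no 24 h wave (adjusted p = 0.956), and the 2 probe sets differed in opposite directions on the arrays of high β-actin difference (0.14 and −0.20).

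The factors that carry the signal and the sensors that start it were not called by the linear term over the whole course in limma's test (0 of 7 also at an unadjusted p under 0.05). With the β-actin difference in the fit Ifih1, on the floor, was called (0.047, adjusted p = 0.0432). Over the course Irf1 changed by 0.20 ± 0.13, Stat2 by 0.06 ± 0.12 and Irf9 by −0.07 ± 0.07. Among the sensors of viral RNA, Ddx58, which encodes RIG-I, changed by 0.34 ± 0.27 and by −0.07 ± 0.11 on its second probe set, and Dhx58 by −0.26 ± 0.19, so changes of the size of these errors could not be resolved. Ifi35 changed by 0.0040 ± 0.068, and its other probe sets by 0.0028 ± 0.13 and 0.14 ± 0.10, none of them called.

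In 7 of the 34 genes the first 6 and last 6 arrays did not overlap. They rose in Ifit2, Ifit3, Ifi27, B2m, H2-D1 and H2-K1, and the last 6 lay above the first 6 in 6.53% of all probe sets. They fell only in Usp18, and the last 6 lay below the first 6 in 6.59% of all probe sets. All 7 genes lay above the median probe set, and the shares among such probe sets alone were not computed.

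**Figure D3:**
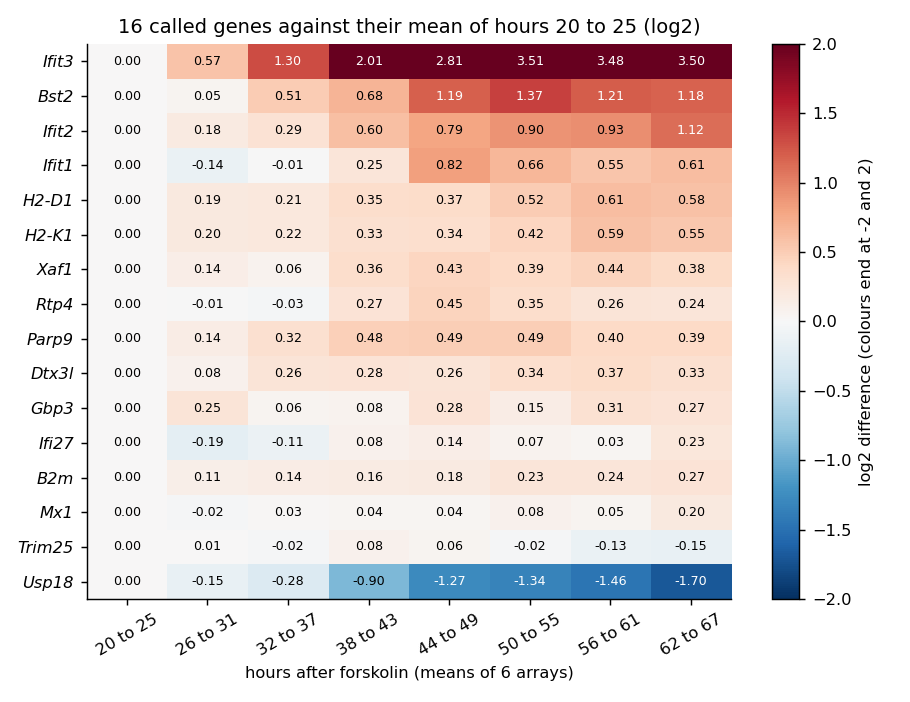
Means of 6 arrays minus the mean of hours 20 to 25 (log2) for the 16 called genes, ordered by fitted change, with the value in each cell; the colours end at −2 and 2. Ifit3 passes 3.5 by hours 50 to 55 and stays there, Usp18 falls in all blocks, and Ifit1 and Rtp4 are highest in hours 44 to 49.

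Rises fell mostly in the first day. A hinge added to the fit gave a slope for hours 20 to 43 and another for hours 44 to 67, each given as the log2 change per 24 h. In the first day 15 of the 34 genes rose, all of them among the 24 above the median probe set, and 6 fell. Over all probe sets 11.3% rose and 47% fell in that day, and above the median 21.6% rose and 19.8% fell. Of the 6 falls 5 were in genes on the floor and at most 0.0081 in size, which left Usp18 (−1.31 ± 0.14) as the only fall above the median. In the second day 6 genes rose and 4 fell, against 6.27% and 7.33% of all probe sets and 11.6% and 14.5% of those above the median. All 10 lay above the median, and their 4 falls were near the share of the other probe sets there.

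The genes that still rose on the second day were Ifit2, Ifit3, Ifi27, B2m, H2-D1 and H2-K1. H2-D1 rose by 0.40 ± 0.05 on the first day and 0.27 ± 0.05 on the second, and the difference was not called (adjusted p = 0.205). In H2-K1 the changes were 0.35 ± 0.05 and 0.25 ± 0.05, and in B2m 0.18 ± 0.03 and 0.09 ± 0.03, again without a called difference. The further bright H2-D1 probe sets also rose on the second day without a called difference. Those of H2-K1 did not rise then (0.07 ± 0.08 and −0.03 ± 0.11), and their slopes differed (adjusted p = 0.000712 and 0.000551). The second B2m probe set rose by 0.28 ± 0.02 and 0.12 ± 0.02, with a called difference (adjusted p = 0.0123). Usp18 fell by 1.31 on the first day and 0.85 on the second. Falls on the second day were also found in Trim25 (−0.26 ± 0.04), Tap1 (−0.39 ± 0.09) and Stat2 (−0.39 ± 0.11).

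The 2 slopes differed in 7 of the 34 genes, against 7.25% of all probe sets, and in each of the 7 the second slope was the lower. All 7 lay above the median probe set, and the share among such probe sets alone was not computed. Ifit3 went from 3.22 ± 0.26 per day to 1.27 ± 0.26 (adjusted p of the difference 0.00319), Ifit2 from 0.84 ± 0.05 to 0.50 ± 0.05 (0.0048) and Bst2 from 1.43 ± 0.16 to 0.30 ± 0.16 (0.00621). Parp9 rose by 0.59 ± 0.09 on the first day and then changed by −0.20 ± 0.09 (0.000819). Stat2, which was not called over the whole course, rose by 0.45 ± 0.11 and then fell by 0.39 ± 0.11 (0.00371). Its other probe set, with a mean of 6.68, changed by 0.22 ± 0.11 and 0.02 ± 0.11, without a called difference (0.409). The brightest one was 0.27 higher on the arrays of high β-actin difference, which include hours 36, 38, 40, 43, 45 and 46. The part of RNA quality in this course was not tested. Trim25 and Tap1 changed by 0.09 ± 0.04 and 0.15 ± 0.09 on the first day before their falls (0.00114 and 0.0347). The second Trim25 probe set, with a mean of 14.17, changed by 0.05 ± 0.08 and −0.04 ± 0.08, without a called difference (0.612). The remaining Trim25 and Tap1 probe sets, with means below the median probe set, had no called difference either. Irf1 (0.33 ± 0.14) and Parp14 (0.44 ± 0.15) also rose on the first day, with no called difference between days. Ifi35 had none by its brightest probe set. A further Ifi35 probe set, with a mean of 12.86, changed by 0.51 ± 0.07 and then by −0.37 ± 0.07 (5.2e-06). It is outside the counts, which take the brightest probe set of each gene.

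**Figure D4:**
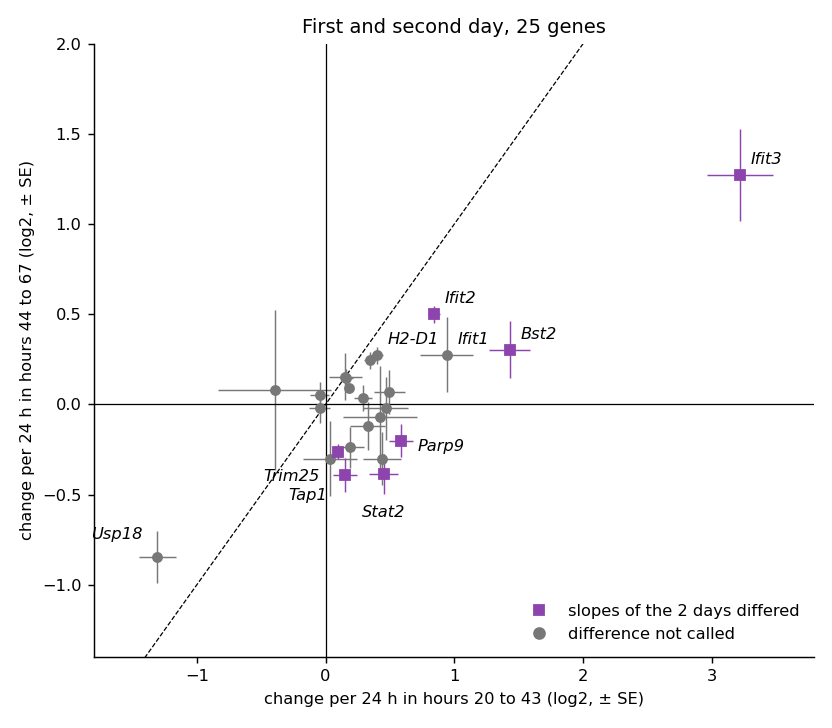
Log2 change per 24 h in hours 44 to 67 against that in hours 20 to 43, each with its SE, for the 25 genes with at least 1 array above the median of all probe sets; the dashed line marks equal change on both days. The 7 genes whose slopes differed (purple squares) all lie below that line, with Ifit3 farthest to the right at 3.22 and 1.27.

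The onset of a change was taken as the first hour from which the 5-array running median lay over 2 SD beyond the mean of hours 20 to 31 for at least 6 hours. It is a description, since the same values sorted the genes into rising and falling. Of the 14 rising genes 8 had such an hour, with a median of 46 and a range from 36 to 62. The earliest were Ifit3 at hour 36, Ifit2 at hour 37 and Bst2 at hour 41, followed by H2-D1 and Xaf1 at hour 46, H2-K1 at hour 49, B2m at hour 53 and Ifi27 at hour 62. Of the 2 falling genes only Usp18 had one, at hour 38, so it left its baseline between Ifit2 and Bst2. Over this rule and 3 variants of it the onset of Ifit3 lay at 36 to 40, that of Ifit2 at 37 to 40, that of Usp18 at 35 to 43 and that of Bst2 at 40 to 44. Bst2 came after Ifit3 and Ifit2 under each of the 4, while the place of Usp18 among them changed, so no order of rising and falling genes could be read.

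The later onset of the class I genes depended on the baseline. Within it their means of hours 26 to 31 were already above those of the first block, by 0.19 in H2-D1, 0.20 in H2-K1 and 0.11 in B2m. Hours 20, 22 and 24 of that block were arrays of high β-actin difference. On all such arrays the 3 genes differed by −0.23, −0.22 and −0.08 from the rest, and the part of RNA quality here was not tested. With hours 20 to 25 as the baseline their onsets moved to hours 36, 35 and 27. The median of the rising genes then moved from 46 to 36. The hour at which the running median passed the midpoint between the first and last 6 arrays for good was 40 for Ifit3, Ifit2 and Usp18, 41 for Bst2, 39 for H2-K1, 37 for H2-D1, 32 for B2m and 63 for Ifit1, which had no onset by the rule or its variants.

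The array of hour 27 stood apart in a few genes of the list. Cxcl10, a chemokine that attracts T cells, had 11.42 at hour 27 and between 5.92 and 6.62 on the other 47 arrays. At hours 26 and 28 it had 6.17 and 6.16, so hour 27 exceeded the mean of its neighbours by 5.26, or 38.2-fold, the rank of 6 among all probe sets. Irf1, which drives Cxcl10 and class I genes in response to interferon-γ, had 15.03 there against 13.68 and 13.74 at its neighbours, a difference of 1.32. These 2 were the only genes of the list with a step over 1 at this hour, and 0.542% of all probe sets had one. Gbp2 exceeded its neighbours by 0.78, Gbp3 by 0.60, Ifit1 by 0.59, Parp14 by 0.49 and Tap1 by 0.44, whereas Ifit3 and Ifit2 differed by 0.10 and −0.10. Usp18 differed by −0.45, the lowest of the list. Cxcl10, Irf1, Gbp2, Gbp3 and Tap1 had their highest value of the course at hour 27, 5 of the 34 genes, as did 1.44% of all probe sets.

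**Figure D5:**
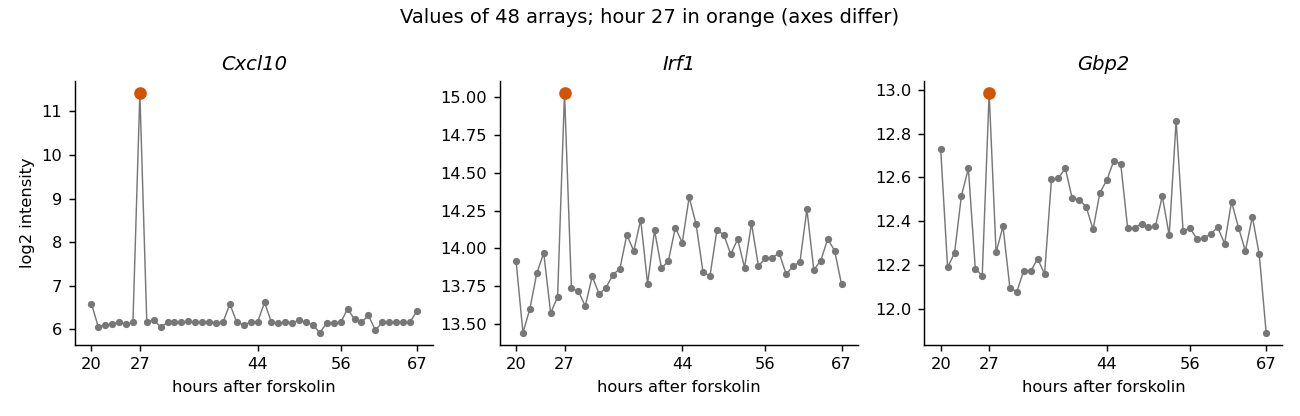
Log2 intensity of Cxcl10, Irf1 and Gbp2 on each of the 48 arrays against hours after forskolin, with hour 27 in orange; the vertical axes differ. Cxcl10 reaches 11.42 on that array and stays at or below 6.62 on the other 47.

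The hour 27 array had a β-actin difference of 1.22 and a median of 6.66, both within the range of the others, and with 1 array per hour it has no replicate. Without it Irf1 was called as rising (0.27, adjusted p = 0.0164). Hour 36, the array with the highest β-actin difference (2.42), held 3 steps over 1 in the list, in Rtp4 (1.09), Dhx58 (1.08) and Ddx58 (1.01), and 3.29% of all probe sets had one there. Ifit1 exceeded its neighbours on that array by 0.78, Parp14 by 0.74 and Ifit3 by 0.64, while Xaf1 differed by −0.64. The part of RNA quality in these steps was not tested.

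Further genes of the interferon pathway were read from a second list of 104 genes, of which 93 had a probe set of their own and 68 lay above the median. In it 19 rose and 18 fell, with a median change of −0.0046, beside 14.2% rising and 16.2% falling over all probe sets, so the count of falls was near that share. Above the median 19 of 68 rose and 14 fell, beside 26.4% rising and 26.4% falling over all such probe sets. None of the 9 measured ligands and receptors was called in limma's test, and 2 had an unadjusted p under 0.05. Ifnb1, Ifna2, Ifna4 and Ifng lay below the median probe set on all arrays, with no array over 5.54, and Ifnar1 and Ifnar2 changed by 0.07 ± 0.07 and −0.08 ± 0.06. Among 41 further interferon-stimulated genes 14 rose and 7 fell, and 9 of the 41 lay below the median probe set on all arrays. The falls included Iigp1 (−0.031 ± 0.010) and Cmpk2 (−0.023 ± 0.009), both on the floor, where little change can be read. Sp100, of nuclear bodies, rose by 1.45 ± 0.16 (adjusted p = 2.63e-10), and the immunity-related GTPases Ifi47, Igtp and Irgm2 rose by 1.42 ± 0.13, 1.26 ± 0.18 and 0.94 ± 0.14. Ifitm1, which blocks entry of viruses, fell by 1.62 ± 0.15 on the log2 scale (adjusted p = 7.65e-13).

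Among the signalling genes of the second list, 5 of 11 adaptors and factors of sensing fell and none rose, and over all probe sets above the median, where 10 of the 11 lay, 26.4% fell. These groups are small, and no difference from other probe sets was tested. The largest of the 5 falls was in Mb21d1, the DNA sensor cGAS (−0.87 ± 0.08). Of 6 inhibitors 3 fell and 1 rose, and Socs3, which blocks JAK kinases, fell by 1.42 ± 0.12 (adjusted p = 1.01e-13). Of 17 genes of antigen processing 3 rose and 1 fell, beside 14.2% rising and 16.2% falling over all probe sets. Above the median, where 12 of the 17 lay, 26.4% of all probe sets rose and 26.4% fell. Ccl2, a chemokine for monocytes, rose by 0.81 ± 0.17 (adjusted p = 0.000162). Of the 93 genes 7, named after their values were seen, had their highest value at hour 27, beside 1.44% of all probe sets. Ccl5 stood at 10.92 there against 5.52 and 5.45 at its neighbours, Ccl2 exceeded its neighbours by 1.97, Ccl7 by 1.77, Gbp6 by 1.22, Jak2 by 0.61, Socs3 by 0.57 and Casp4 by 0.27.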

How the data were processed

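The deposited values were probe set intensities on a linear scale from Affymetrix mouse genome arrays, background-corrected and normalized across the 48 arrays by the authors, whose methods name GCRMA and whose processing notes name MAS5. Their scaling constant is unknown. No constant was added before log2. The number of arrays limits the precision. Gene symbols came from the platform annotation and were updated through gene identifiers. The 64 control probe sets were left out of tests. limma 3.58.1 in R 4.3.3 fitted a linear hour term with a 24 h cosine to 45037 probe sets, with moderated tests and Benjamini-Hochberg adjustment at 0.05, and a hinge between hours 43 and 44 in a further fit. Neighbouring arrays are not independent (lag 1 correlation of residuals −0.23 to 0.37 in the called genes), so SEs are approximate. Fisher's G-test was run with exact p-values and Storey q. COSOPT was not run. The fits were tested on simulated data with independent noise on each array. Such data cannot show how the calls behave when neighbouring arrays are dependent. Genes, lists and tests were chosen with earlier results of these data known. The rule for named genes took all 36 genes, full values for called genes by size of change, and from the pathway list the 8 called genes of largest change; Trim25, Gbp2, Tap1 and the hour 27 genes of the pathway list were named beyond it.  Alternatives left out or replaced arrays, normalization, covariates and probe sets. Figures used matplotlib 3.10.9 in Python 3.11.15.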

Additional observations from a re-analysis of the deposited data

Results flagged for a closer look

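Slopes that differed between hours 20 to 43 and hours 44 to 67 mark 7 genes for a closer look. The second slope minus the first, in log2 per 24 h, was −1.95 in Ifit3, −1.13 in Bst2, −0.84 in Stat2, −0.79 in Parp9, −0.54 in Tap1, −0.36 in Trim25 and −0.34 in Ifit2. Leaving out single arrays gave 6 to 8 such genes. Among probe sets that were not the brightest of their gene, those of Stat2, Trim25 and Tap1 had no called difference. Others of Ifi35, H2-K1 and B2m had one, although these genes are not among the 7.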

How the results depend on the processing

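No called change reversed. In 10 genes that were not called the fitted change had another sign in 26 values, none of them called. Of 364 values for single genes under 11 other settings, 336 kept their side of the threshold, 15 lost a call and 13 gained one. Ifit1, Ifit2, Ifit3, Bst2, Mx1, Xaf1, Dtx3l, B2m, H2-D1, H2-K1 and Usp18 were called under all of these in which they were tested (Mx1 was not among the probe sets above the median), and without any single array. Without single arrays 12 to 15 genes rose and 2 to 3 fell. Falling genes numbered 1 with means of 6 h blocks, where Trim25 was lost, and 5 without hours 62 to 67, where Irf7, Oasl1, Rsad2 and Mx2, all on the floor, were called and Trim25 was lost. Parp9 and Rtp4 were lost without hours 20 to 25 and with means of 6 h blocks, and Rtp4 also with a term for hours 52 to 55. Ifi27 was lost with means of 6 h blocks (0.31, adjusted p = 0.122). Tap1 was called as falling with quantile normalization (adjusted p = 0.0261) and in 4 other settings. Averaging all probe sets of a gene left 0 genes with a 24 h cosine. The median onset of rising genes was 36 with hours 20 to 25 as the baseline and 39.5 to 46.5 in the other settings. For falling genes it was 43 with a limit of 3 SD, 35 with hours 20 to 25 as the baseline, 39 with a running mean, 48.5 for the half-change hour and 46.5 for the break of a 2-segment line, and only the last 2 include Trim25. Against the median of the other 47 arrays, chosen after seeing the data, hour 27 exceeded by 1.12 in Irf1 and 5.26 in Cxcl10. The causes were not tested. No paired analysis was possible because all samples form 1 group.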
